A study of Mus musculus with 12 samples.

Results

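The Slc25 genes encode the mitochondrial solute carriers, and their expression was measured here in mouse quadriceps muscle in a study of Pompe disease, in which the lysosomal enzyme acid alpha-glucosidase (Gaa) is lacking, and of its treatment by gene transfer to the liver. Members were the protein-coding genes of the deposited tables whose symbol begins with Slc25, which gave 44 of 15344 genes. The WT group held 4 untreated C57BL/6 mice. The KO group held 4 GAA-KO mice on C57BL/6 that were injected with PBS, and the AAV group held 4 such mice injected with AAV2/8-LSPhGAApA at 2e12 vg/kg, a vector with a liver-specific promoter. Mice of the KO and AAV groups were males injected in the tail vein at 2 months of age, and quadriceps of all 12 mice was taken at 6 months, 4 months after injection. By the labels the AAV mice were GAA-KO mice like those of the KO group, and no group of treated WT mice was analysed here.

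Carriers of this family sit in the inner mitochondrial membrane and exchange nucleotides, phosphate, carboxylates, amino acids and cofactors between the cytosol and the matrix. In skeletal muscle the adenine nucleotide carrier Slc25a4 exports ATP made by oxidative phosphorylation, Slc25a3 imports the phosphate it needs, and Slc25a11 and Slc25a12 together run the malate-aspartate shuttle, which brings reducing equivalents from glycolysis into the matrix. The calcium-regulated ATP-Mg/phosphate carriers (Slc25a23, Slc25a24, Slc25a25) set the size of the adenine nucleotide pool of the matrix, and a few members sit elsewhere, such as Slc25a17 in peroxisomes and Slc25a46 in the outer mitochondrial membrane.

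Counts of Gaa did not follow the labels. Normalized counts of Gaa were 343, 14640, 324 and 460 in the libraries labelled WT 1 to 4, between 11936 and 13075 in the 4 libraries labelled KO, and 947, 587, 500 and 9854 in those labelled AAV 1 to 4. Gaa was therefore lowest in libraries labelled WT and high in all those labelled KO, and WT 2 and AAV 4 stood apart from their groups. Which part of Gaa the knockout allele alters was not checked, nor was it tested whether labels or columns of these libraries were exchanged. GAA activity and glycogen of the muscles, which the study also measured, were not analysed here. Groups are called below by their labels, each direction is given under that limit, and calls of members that were lost without WT 2 or AAV 4 are named. The libraries held between 22122233 and 47379737 reads. The 8 listed markers of fast muscle fibres summed to between 4272980 and 6889650 normalized counts in every library. Fewer cells of a type and less RNA per cell cannot be told apart in such bulk RNA. The samples come from separate animals, without technical repeats.

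Upstream sequence is shown for 3 members: Slc25a30 and Slc25a25, whose values in every KO library lay above those of all other libraries, and Slc25a34, which fell in KO and carries a listed motif. Slc25a16 and Slc25a2 were also higher in every KO library than in all others, and no sequence is shown for them. The windows are the 250 bases before an annotated start site in RefSeq (GRCm38.p6), printed 5′ to 3′ on the strand of the gene, with the motif found in capitals. RefSeq windows were found for 33 of the 44 members, 42 windows in all.
Slc25a30, chr14:75787038-75787287, minus strand, none of the 4 motifs: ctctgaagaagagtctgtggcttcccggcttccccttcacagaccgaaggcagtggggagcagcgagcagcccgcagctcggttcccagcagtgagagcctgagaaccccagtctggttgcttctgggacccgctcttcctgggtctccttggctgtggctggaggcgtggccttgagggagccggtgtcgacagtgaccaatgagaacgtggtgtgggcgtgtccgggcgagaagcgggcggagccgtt
Slc25a25, chr2:32424067-32424316, minus strand, cAMP response element in capitals: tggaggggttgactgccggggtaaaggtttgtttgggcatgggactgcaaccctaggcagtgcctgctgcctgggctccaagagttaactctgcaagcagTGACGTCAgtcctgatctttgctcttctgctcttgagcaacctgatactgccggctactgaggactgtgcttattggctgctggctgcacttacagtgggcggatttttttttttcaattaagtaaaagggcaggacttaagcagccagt
Slc25a34, chr4:141623835-141624084, minus strand, estrogen-related receptor half-site on the other strand in capitals: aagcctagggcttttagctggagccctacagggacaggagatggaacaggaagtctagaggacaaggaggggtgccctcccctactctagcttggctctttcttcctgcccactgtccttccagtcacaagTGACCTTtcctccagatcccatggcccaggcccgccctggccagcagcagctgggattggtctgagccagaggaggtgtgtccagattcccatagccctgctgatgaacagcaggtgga
Searched on both strands were the cAMP response element TGACGTCA, the E-box CACGTG, the estrogen-related receptor half-site AAGGTCA and the site of NRF1, a palindrome of 10 letters given here by its name. The cAMP response element was in 1.55% of all 32851 windows and in 2 of the 42 windows of the family, the Slc25a25 window above, 150 bases before the start site, and a window of Slc25a36, 161 bases before it. The other Slc25a25 windows searched held none of the 4 motifs. The half-site was in 4.08% of all windows and in 1 of the family, that of Slc25a34, 119 bases before the start site. The E-box was in 6.02% of all windows and in 7 of the 42, and the NRF1 site was in 0.782% of all windows and in 0 of the 42. A match is a description of these letters, and factor binding was not measured.

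In every library the family was dominated by a single gene. Slc25a4, the heart and muscle isoform of the adenine nucleotide carrier (ENSMUSG00000031633, chromosome 8, 46206797 to 46211284), made up between 61.2% and 67.3% of the summed normalized counts of the 44 members, and between 74.0% and 79.8% once counts were divided by exonic length. The normalized counts of Slc25a4 were 106724, 128108, 138419 and 104881 in WT 1 to 4, 105398, 140576, 132373 and 127124 in KO 1 to 4, and 97050.3, 131778, 140189 and 91023 in AAV 1 to 4, and the 3 groups overlapped. Its level per kb of exon averaged 50800.2 in the WT, 53705 in the KO and 48878 in the AAV group. The related isoform Slc25a5, which prevails in dividing cells, had 378 to 580 normalized counts in WT, 359.9 to 442 in KO and 311 to 392 in AAV. It averaged 289, 247 and 219 per kb in the same groups, so that Slc25a4 exceeded it per kb by 129-fold to 261-fold over the 12 libraries. The annotation lists 1 pseudogene named after Slc25a5, and its reads are uncertain to that extent.

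Below Slc25a4 the levels per kb of exon fell steeply. Over all 12 libraries Slc25a3, the phosphate carrier, averaged 3892 per kb and Slc25a11, the oxoglutarate/malate carrier, 3839.6 per kb, an order that the groups did not share. Slc25a12, the muscle aspartate/glutamate carrier, followed at 1462 per kb, far above its liver counterpart Slc25a13 at 3.50 per kb, the lowest of the family. Slc25a39, which carries glutathione, had 802, Slc25a25 had 528 and the acylcarnitine carrier Slc25a20 had 498 per kb. Slc25a25 averaged 350 per kb in WT, 948 in KO and 286 in AAV, so its place in this order differed between the groups. Slc25a20 ranged from 1994 to 3367 normalized counts in WT, from 2134 to 2752 in KO and from 1779 to 3152 in AAV, and Slc25a13 from 4.42 to 21.9 over all 12 libraries. In all, 4 members had a mean of at least 1000 per kb, 18 lay between 100 and 1000, 15 between 10 and 100, and 7 lay below 10.

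**Figure D1:**
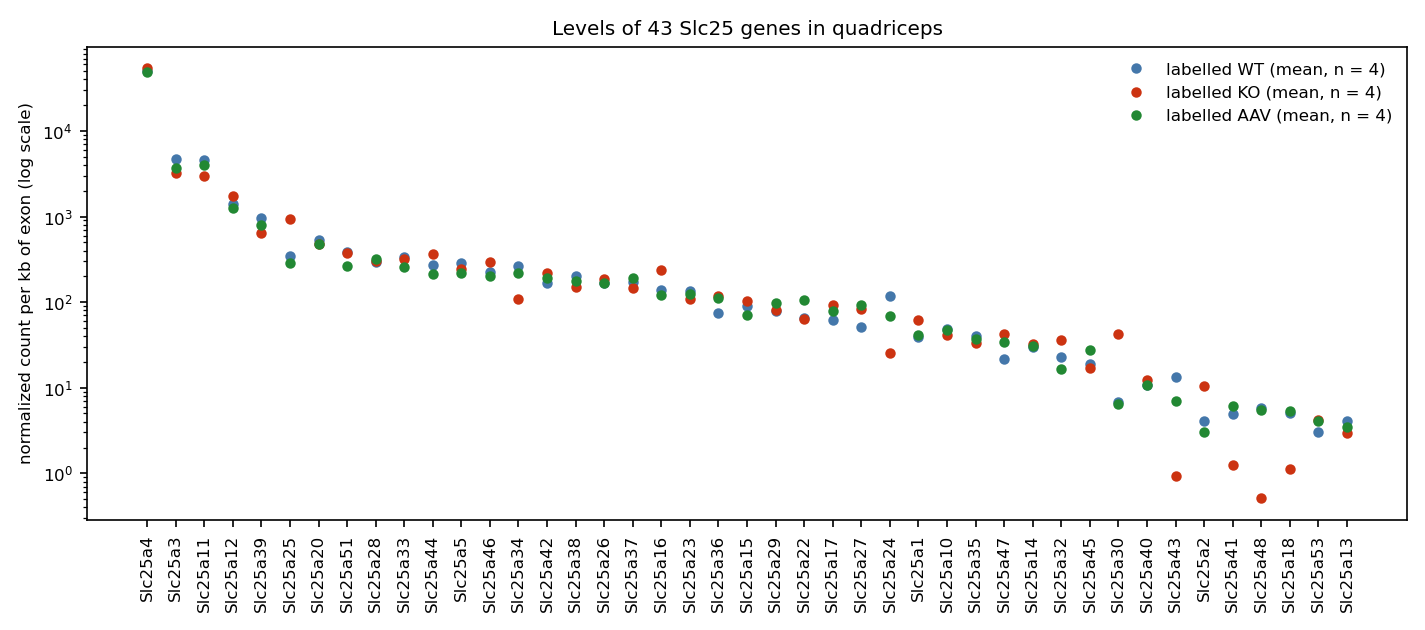
Mean normalized count per kb of exon (vertical axis, log scale) of 43 Slc25 genes (horizontal axis, ordered by the mean over 12 libraries) in the libraries labelled WT, KO and AAV, with n = 4 each. Slc25a4 stands at 48878 to 53705 per kb in the 3 groups, and the KO means of Slc25a30, Slc25a24, Slc25a43 and Slc25a48 stand apart from the other group means.

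The summed signal of the family overlapped between the 3 groups. Summed over the 44 members, the normalized counts were 190292 ± 21275 (SD, n = 4) in WT, 193090 ± 16194 in KO and 176142 ± 32478 in AAV. An exact two-sided permutation test gave p = 0.886 for KO against WT, 0.343 for AAV against KO and 0.486 for AAV against WT, where 4 libraries against 4 can give no p below 0.0286. As a share of all counted reads the family made up between 0.473% and 0.621% of a library. Slc25a4 held 75.2% ± 1.37 of the summed level per kb in WT and 78.8% ± 1.89 in KO, a difference at exact permutation p = 0.0571. Over the 12 permutation comparisons of family sums and shares that were computed, its Benjamini-Hochberg adjusted p was 0.588, and no other was lower. KO 2, KO 3 and KO 4 lay above every WT library, and KO 1 lay among the WT values.

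The first comparison asked how muscle of the KO group differs from WT. Of the 44 members 43 passed the filter on low values, and 8 of them were higher in KO (18.6%, against 12.3% of all 14859 genes tested) and 7 were lower (16.3%, against 15.3%), at a limma adjusted p under 0.05 over all genes. With a log2 fold change of at least 1 in either direction as well, 8 members were called, 18.6% against 13.9% of all genes. The median log2 fold change of the members was 0.03, beside 0.02 over all genes tested. The shares lie near those of all genes, and the account below is of single members and of what they carry. Slc25a41 did not pass the filter, Slc25a43, Slc25a48 and Slc25a18 passed it only through WT values, and Slc25a2 only through KO values. Of these, Slc25a2, Slc25a43 and Slc25a48 are among the 8 called with a log2 fold change of at least 1.

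**Figure D2:**
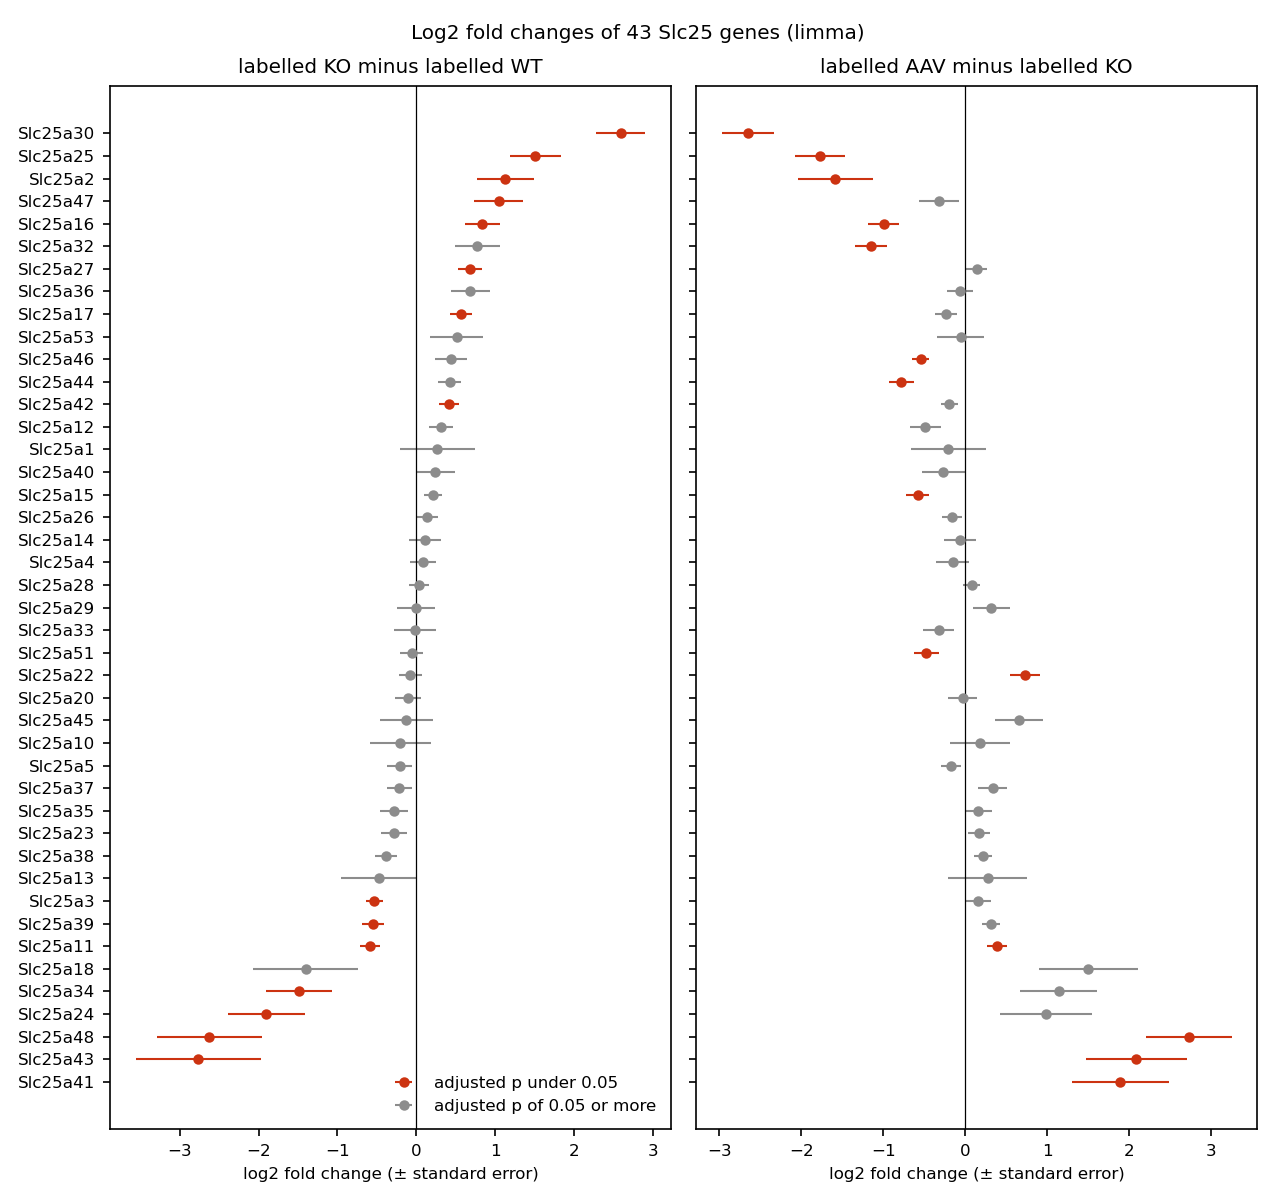
Log2 fold change (horizontal axis, with standard error) of 43 Slc25 genes (vertical axis) in the libraries labelled KO against WT (left) and AAV against KO (right), from limma. Slc25a41 was tested on the right only. Both panels use the same 4 KO libraries. Slc25a30 lies at 2.59 on the left and at -2.66 on the right.

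The lowest adjusted p of the family was that of Slc25a30 (ENSMUSG00000022003, chromosome 14, 75760117 to 75787037, minus strand), a relative of the uncoupling proteins also known as the kidney mitochondrial carrier protein. Its normalized counts were 35.3, 37.2, 32.5 and 18.5 in WT 1 to 4, 130, 160, 315 and 176 in KO 1 to 4, and 23.4, 39.3, 36.6 and 19.3 in AAV 1 to 4. Every KO library was above every other library, and the WT and AAV libraries overlapped. The KO mean was 6.33-fold the WT mean, with a log2 fold change of 2.59 ± 0.31 (SE, limma adjusted p = 0.000964). Leaving out each library in turn kept it between 2.33 and 2.75 and kept the call, WT 2 included.

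KO 3, the highest library for Slc25a30, also had the most RNA of adipocyte genes. The sum of 7 adipocyte markers was 16411 there, against 3083 to 10009.5 in the other libraries, and Ucp1, the uncoupling protein of brown fat, had 194 normalized counts there and at most 2.36 elsewhere. The citrate carrier Slc25a1, singled out after its values were seen, had 327 in KO 3 and 59.2 to 110 elsewhere. Its log2 fold change of 0.27 in KO against WT (limma adjusted p = 0.690) became -0.29 without KO 3. Slc25a30 was also higher than in every WT library in KO 1, 2 and 4, and the part of fat RNA in its KO 3 value was not tested. Its relatives of the uncoupling group were Slc25a27, a carrier known from brain, which rose (log2 fold change 0.68 ± 0.15, limma adjusted p = 0.0111) and kept the call under every alternative and leave-out, and Slc25a14, at 0.11 (adjusted p = 0.707).

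Of the 3 ATP-Mg/phosphate carriers tested, 1 was called higher in KO and 1 lower, beside 12.3% and 15.3% of all genes tested. Slc25a23 was not called, at a log2 fold change of -0.28 (limma adjusted p = 0.202). Slc25a25 (ENSMUSG00000026819, chromosome 2, 32414487 to 32451445, minus strand), a calcium-regulated carrier of muscle, had 4194, 3349, 1501 and 1957 normalized counts in WT 1 to 4, 8107, 9522, 4681 and 7491 in KO 1 to 4, and 2122, 1142, 3023 and 2698 in AAV 1 to 4. KO was above both other groups without overlap, the nearest pair being KO 3 at 4681 and WT 1 at 4194. The KO mean was 2.71-fold the WT mean, with a log2 fold change of 1.51 ± 0.33 (limma adjusted p = 0.0103), kept between 1.26 and 1.75 when a library was left out.

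Slc25a25 shares 379 exonic bases with Naif1 on the opposite strand. Naif1 had 110 to 232 normalized counts over the 12 libraries, below the lowest Slc25a25 value, and how the authors' counting treated strand is not given in the sources used here. Slc25a24, the member of this group found in many dividing cell types (ENSMUSG00000040322, chromosome 3, 109123149 to 109168457), went the other way, with 708, 357, 99.8 and 452 normalized counts in WT 1 to 4, 99.5, 86.4, 89.2 and 73.4 in KO, and 244, 134, 52.0 and 521 in AAV. The highest KO value, 99.5, lies just under WT 3, at 99.8, and the other WT libraries were well above. Its log2 fold change in KO against WT was -1.90 ± 0.49 (limma adjusted p = 0.0193), and the adjusted p was 0.0525 without WT 2, 0.0590 without WT 4 and 0.0516 without KO 4. Per kb of exon, Slc25a25 exceeded Slc25a24 in all 3 groups. The ratio of their normalized counts, not divided by length, was 4.33 to 15.0 in WT, 52.5 to 110 in KO and 5.18 to 58.2 in AAV.

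The less abundant members that fell most were Slc25a43 and Slc25a48, carriers whose substrates are not named here. Slc25a43 had 29.0, 33.0, 1.62 and 32.2 normalized counts in WT 1 to 4, and at most 2.57 in KO. WT 3 lay within the KO range, so the groups overlapped, and the log2 fold change of -2.76 ± 0.80 (limma adjusted p = 0.0300) lost its call in 7 of 8 leave-outs, all but that of WT 3. Slc25a48 had 31.7, 13.8, 3.25 and 29.3 in WT and 0.855 to 3.26 in KO, with a log2 fold change of -2.62 ± 0.66 (limma adjusted p = 0.0183). Without WT 1, WT 4, KO 1 or KO 2 its adjusted p lay above 0.05, between 0.0510 and 0.0593. The 4 KO libraries held 7 reads of each gene in all, so the fitted size of these changes depends on the 1 added before the logarithm.

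Macrophage markers moved with Slc25a24, Slc25a43 and Slc25a48. The summed normalized counts of 5 of 6 listed macrophage markers (1 was not in the tables) were 3479, 3420, 1105 and 3936 in WT 1 to 4, 549 to 1025 in KO, and 1276, 1091, 618 and 3382 in AAV 1 to 4. WT 3, the lowest WT library for the marker sum, was also the lowest for all 3 carriers, and AAV 4, the highest AAV library, was the highest for all 3. Of the 5 markers 4 were lower in KO than in WT and none had an adjusted p under 0.05 in AAV against KO. The part of macrophage RNA in these carriers was not tested.

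**Figure D3:**
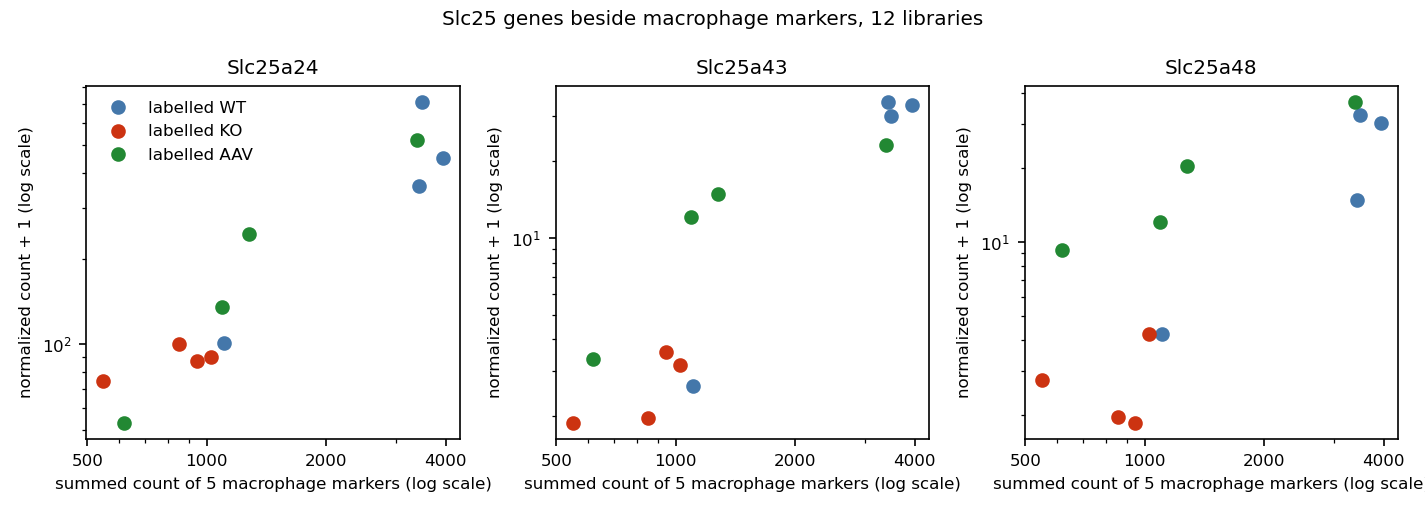
Normalized count plus 1 (vertical axis, log scale) of Slc25a24, Slc25a43 and Slc25a48 against the summed normalized counts of 5 macrophage markers (horizontal axis, log scale), 1 point for each of the 12 libraries, coloured by label. Of the WT libraries, WT 3, with a marker sum of 1105, is the lowest for each carrier, and AAV 4, with 3382, is the highest of the AAV libraries.

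Of the 5 members highest per kb of exon (Slc25a4, Slc25a3, Slc25a11, Slc25a12 and Slc25a39), 3 were lower in KO and 0 higher, beside 15.3% and 12.3% of all genes tested. The ranking uses means over all 12 libraries. Within KO, Slc25a25, which was called higher, averaged 948 per kb, above Slc25a39 at 645, so this count depends on that pooling. Slc25a3 (ENSMUSG00000061904, chromosome 10, 91116574 to 91124059) had 24487, 27449, 26897 and 25797 normalized counts in WT 1 to 4 and 18697, 18302, 18928 and 16482 in KO 1 to 4. The lowest WT library was above the highest KO library. Its log2 fold change was -0.53 ± 0.11 (limma adjusted p = 0.00920), and the call held in every alternative and leave-out.

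Slc25a11 (ENSMUSG00000014606, chromosome 11, 70644196 to 70647479) had 8235, 11161, 9890 and 9202 in WT 1 to 4 and 6355, 6750, 6485 and 5898 in KO 1 to 4, again without overlap. Its log2 fold change was -0.59 ± 0.12 (limma adjusted p = 0.00882), held likewise. It shares 189 exonic bases with Rnf167 on the opposite strand, which had 1051 to 1571 normalized counts in the 12 libraries. Slc25a39, the glutathione carrier, had 2474, 3387, 2275 and 2384 in WT 1 to 4 and 1611, 1895, 1894 and 1709 in KO 1 to 4, with a log2 fold change of -0.55 ± 0.14 (limma adjusted p = 0.0209), and a correction for GC content moved it to -0.22 (adjusted p = 0.120). Its adjusted p was 0.0648 without KO 1 and 0.0567 without KO 4.

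These 3 carriers were lower while the most abundant was not called. Slc25a4 had a log2 fold change of 0.08 with a 95% interval of -0.29 to 0.46 (limma adjusted p = 0.731), and Slc25a5 one of -0.21 with an interval of -0.57 to 0.14 (adjusted p = 0.334). Slc25a12 had 9649, 10017, 13368 and 8164 normalized counts in WT 1 to 4 and 12317 to 12888 in KO, at a log2 fold change of 0.32 (limma adjusted p = 0.137). It thus did not share the call of Slc25a11, its partner in the malate-aspartate shuttle, and without WT 3, the highest WT library, its adjusted p was 0.00653. Slc25a20, which brings fatty acids into the matrix as acylcarnitines, had -0.11 with an interval of -0.48 to 0.26 (limma adjusted p = 0.652).

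Slow-fibre genes differed between the same groups. The 7 slow-fibre markers summed to 3396 to 6630 normalized counts in WT, 1112 to 1297 in KO and 2934 to 24410 in AAV, and all 7 were lower in KO than in WT, while 6 of the 7 were higher in AAV than in KO. Slow fibres hold more mitochondria than fast ones, and the part of fibre type in the values of Slc25a3, Slc25a11 and Slc25a39 was not tested.

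Slc25a34, a carrier with no substrate named here and the member with the half-site shown above, had 518, 691, 1040 and 582 in WT 1 to 4 and 163, 584, 271 and 133 in KO 1 to 4. KO 2 lay within the WT range and the other KO libraries lay below it. The log2 fold change was -1.49 ± 0.42 (limma adjusted p = 0.0270). The adjusted p was 0.0643 without WT 2, and the call was kept in 3 of 8 leave-outs and 8 of 10 alternatives.

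Of the 9 members for cofactors and other nucleotides, 3 were called higher in KO and 0 lower, beside 12.3% and 15.3% of all genes tested, and each of these calls was lost in 2 to 6 of the 8 leave-outs. Slc25a16, linked to coenzyme A, rose by a log2 fold change of 0.83 ± 0.22 (limma adjusted p = 0.0213), the coenzyme A carrier Slc25a42 by 0.41 ± 0.13 (adjusted p = 0.0395), and the peroxisomal Slc25a17 by 0.56 ± 0.14 (adjusted p = 0.0172). Slc25a16 was above every WT library in each KO library, but its adjusted p was 0.0547 without WT 2 and above 0.05 without WT 4, KO 1, KO 2 or KO 4. Slc25a17 lost the call without KO 2 or KO 4 and with the replicate number as a block, at 0.0535, and of the 8 leave-outs Slc25a42 kept it in those of WT 2 and WT 3 only. The adjusted p of Slc25a42 was also 0.0875 with the block, and 0.119 with a correction for exonic length, which put its log2 fold change at 0.28.

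The folate and FAD carrier Slc25a32 had 152, 80.8, 222 and 101 normalized counts in WT 1 to 4 and 196, 224, 215 and 249 in KO 1 to 4, a log2 fold change of 0.77 that was not called (limma adjusted p = 0.0685). WT 3 was within the KO range, and without it the adjusted p was 0.00289. The pyrimidine nucleotide carrier Slc25a36 was at 0.68 (adjusted p = 0.0647, and 0.00449 without WT 3) and Slc25a33, with a like role and 358 to 921 normalized counts in WT against 497 to 707 in KO, at -0.01 (adjusted p = 0.973), so these relatives stood at different values without a call for either.

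The remaining calls were in low or tissue-restricted members. Slc25a2, an ornithine carrier, had 4.87 to 6.38 normalized counts in WT and 19.3, 11.97, 17.4 and 7.96 in KO 1 to 4, from 24 reads in WT and 59 in KO. Its log2 fold change of 1.13 ± 0.36 (limma adjusted p = 0.0432) was kept in 2 of 8 leave-outs and 6 of 9 alternatives, with 0.0709 without WT 2. It passed the filter only through KO values. Slc25a47, known from liver, had 41.6, 45.7, 118 and 56.6 in WT 1 to 4 and 101, 151, 118 and 133 in KO 1 to 4, with a log2 fold change of 1.04 ± 0.31 (limma adjusted p = 0.0346). The adjusted p was 0.0898 without WT 2, and of the 8 leave-outs only that of WT 3, which lay with the KO libraries, kept the call. Of the 15 calls 9 were kept without WT 2, and Slc25a3, Slc25a11, Slc25a25, Slc25a27 and Slc25a30 kept theirs in every alternative and leave-out.

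Endothelial markers also differed between WT and KO. The summed normalized counts of the 5 markers were 3599.6, 2147, 6202 and 2727 in WT 1 to 4, 5374 to 6926 in KO and 4601 to 8729.9 in AAV, and 3 of the 5 were higher in KO than in WT. WT 3, the highest WT library of this sum, was also the highest WT library for Slc25a47, Slc25a32 and Slc25a16. In AAV against KO none of the 5 markers had an adjusted p under 0.05. Slc25a32 had 73.0 to 126 normalized counts in AAV against 196 to 249 in KO, and Slc25a16 374 to 719 against 1082 to 1210. Slc25a47 had 62.4 to 131 in AAV, overlapping its KO values. The part of endothelial RNA in these carriers was not tested.

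WT 3 moved the count of calls in the family and over all genes alike. Without it 13 members were higher and 9 lower, 51.2% of those tested beside 48.4% of all genes, where all 8 libraries gave 34.9% and 27.6%. Leaving out any other library left 3 to 5 members higher and 3 to 6 lower, and between 2353 and 2844 of all genes called in place of 4097.

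**Figure D4:**
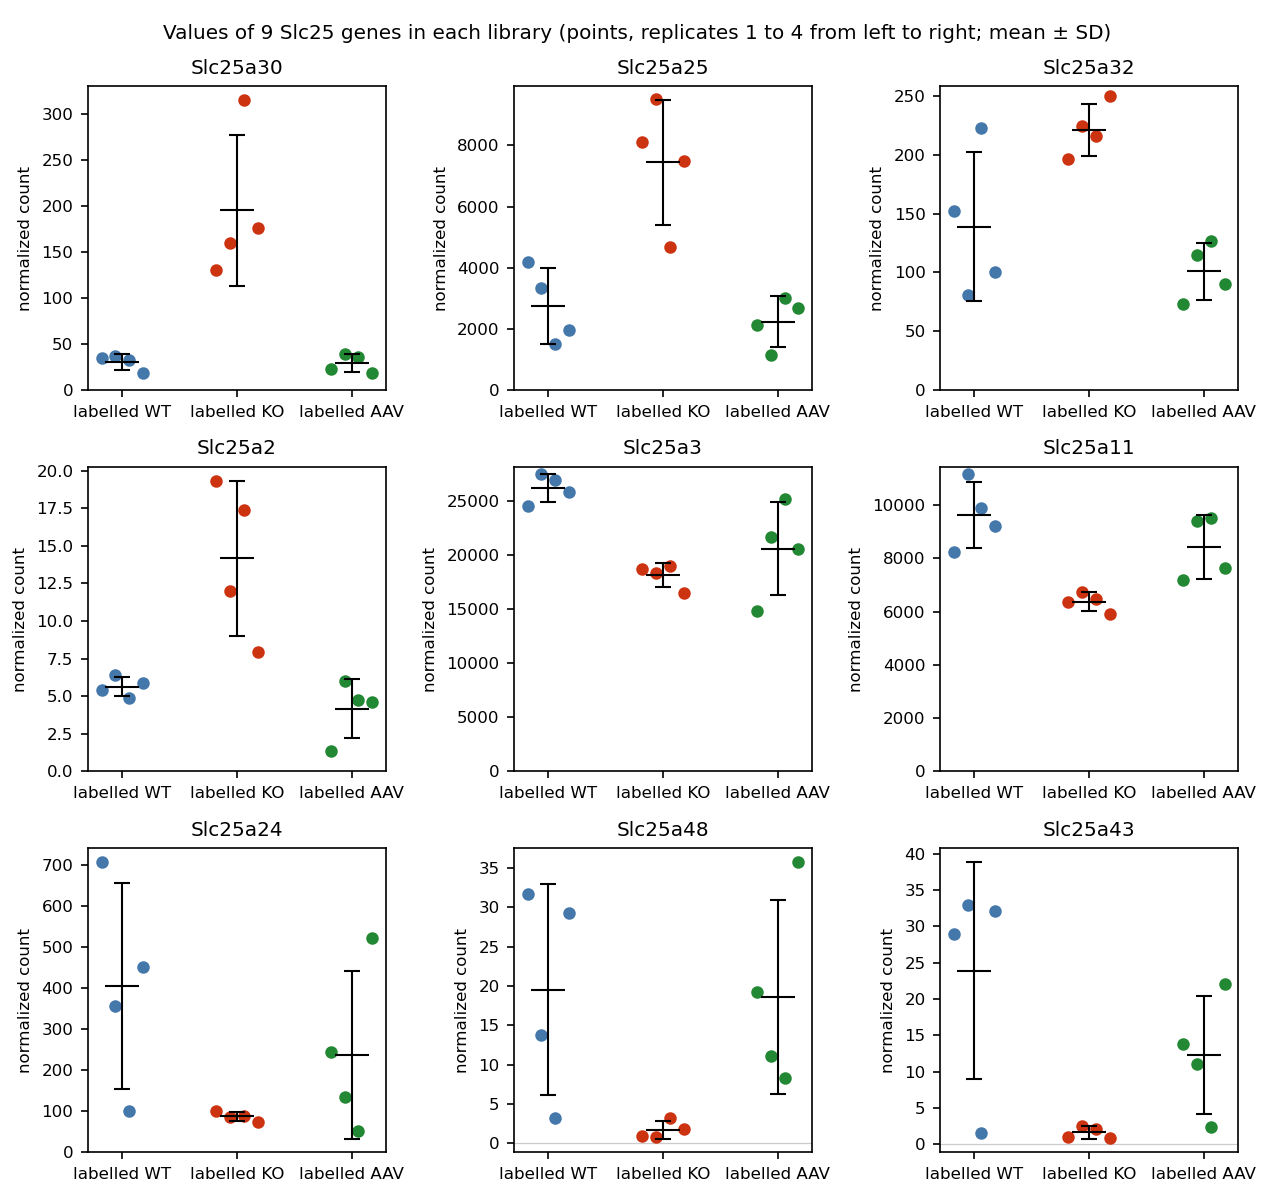
Normalized counts (vertical axes, linear) of 9 Slc25 genes in each library, with points for replicates 1 to 4 and the mean and SD of the groups labelled WT, KO and AAV. For Slc25a30 and Slc25a25 every KO point lies above all WT and AAV points, and WT 3 lies with the KO points for Slc25a24, Slc25a32, Slc25a43 and Slc25a48.

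The second comparison asked how muscle of treated mice differed from that of the untreated KO group. All 44 members passed the filter, and 5 were higher in AAV than in KO (11.4%, against 12.8% of all 14894 genes tested) and 9 lower (20.5%, against 13.4%). With a log2 fold change of at least 1 as well there were 7, 15.9% against 8.98% of all genes. The median was -0.06, beside 0.04 over all genes. Slc25a2 passed the filter only through KO values, and Slc25a18, Slc25a41, Slc25a43 and Slc25a48 only through AAV values. Of these, Slc25a2, Slc25a41, Slc25a43 and Slc25a48 are among the 7. A member admitted through 1 group tends to differ, so the share of 15.9% is not read as a result about the family. The same KO libraries serve in both comparisons, so a member high in them tends to be placed above both other groups, and no agreement between the comparisons is counted here.

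Slc25a30 again had the lowest adjusted p of the family, and Slc25a25 fell with it. Slc25a30 fell to an AAV mean of 29.6 ± 9.79 (SD, n = 4) from 195.4 ± 82.2 in KO, a log2 fold change of -2.66 ± 0.32 (limma adjusted p = 0.00128) that stayed between -2.82 and -2.40 in the leave-outs. Slc25a25 fell to 2246 ± 825 from 7450.5 ± 2032, a log2 fold change of -1.77 ± 0.31 (limma adjusted p = 0.00590). AAV 4, with high Gaa, had 19.3 of Slc25a30 and 2698 of Slc25a25, within the values of the other AAV libraries or below them.

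Carriers of cofactors and of amino acids made up most of the other members that fell. Slc25a32 had 73.0, 115, 126 and 89.9 normalized counts in AAV 1 to 4, all below the lowest KO library at 196, with a log2 fold change of -1.15 ± 0.19 (limma adjusted p = 0.00514). Slc25a16 fell by 0.996 ± 0.19 on the log2 scale (adjusted p = 0.00743). The NAD carrier Slc25a51 fell by 0.47 ± 0.15 (adjusted p = 0.0411), a call that was lost without AAV 4, at 0.0807, and kept in 1 of 8 leave-outs and 6 of 10 alternatives. Of the 9 members for cofactors and other nucleotides these 3 were called lower and 0 higher, beside 13.4% and 12.8% of all genes tested.

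Of the 5 carriers of basic amino acids, glycine and branched-chain amino acids 3 were called lower, beside 13.4% of all genes tested. The branched-chain amino acid carrier Slc25a44 had a log2 fold change of -0.78 ± 0.16 (limma adjusted p = 0.00893) and the ornithine carrier Slc25a15 one of -0.58 ± 0.14 (adjusted p = 0.0182, and 0.0675 with scaling by total reads). The second ornithine carrier, Slc25a2, had 1.38 to 6.04 normalized counts in AAV against 7.96 to 19.3 in KO, at -1.59 ± 0.46 (adjusted p = 0.0314). It passed the filter only through KO values, and the call was lost in 4 of 8 leave-outs and with the replicate block, at 0.0797. Neither Slc25a44, at 0.42 in KO against WT (adjusted p = 0.0604), nor Slc25a15, at 0.21 (adjusted p = 0.193), was called in the first comparison. Slc25a46, an outer membrane protein of mitochondrial fission and fusion, fell by 0.54 ± 0.105 (adjusted p = 0.00815, and 0.0600 at most in the alternatives) and shares 383 exonic bases with a gene on the other strand.

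Among the members that rose, the mitochondrial glutamate carrier Slc25a22 had 627, 840, 465 and 613 in AAV 1 to 4 and 321 to 431 in KO, with a log2 fold change of 0.73 ± 0.18 (limma adjusted p = 0.0196). The groups did not overlap, and the call was lost under a correction for GC content, at 0.0819, and without KO 1 or KO 4. Slc25a11 had 7183, 9402, 9498 and 7621 in AAV 1 to 4, all above the highest KO library at 6750, with a log2 fold change of 0.39 ± 0.12 (limma adjusted p = 0.0399) that was lost under 5 of 10 alternatives and in 6 of 8 leave-outs. Slc25a3 had 14838, 21593, 25189.7 and 20556 in AAV 1 to 4, on both sides of the KO values, at a log2 fold change of 0.16 (limma adjusted p = 0.480), so that the phosphate carrier was called in the first comparison and not in the second. Slc25a39, at 0.32 (adjusted p = 0.0621), was not called either, though DESeq2 gave an adjusted p of 0.0451.

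The scarce members that rose had few reads in KO, and Slc25a48, Slc25a43 and Slc25a41 were tested only because their AAV values passed the filter. Slc25a48 had 19.3, 11.1, 8.27 and 35.8 normalized counts in AAV 1 to 4, all above the highest KO value of 3.26, with a log2 fold change of 2.73 ± 0.52 (limma adjusted p = 0.00796). The call was kept in the 8 leave-outs and in the 9 alternatives that tested it, and the filter at 50 left it out. Since KO held 7 reads, a gene admitted by its AAV values had to differ here. Slc25a43 had 13.8, 11.1, 2.36 and 22.0 in AAV 1 to 4, with AAV 3 inside the KO range, and a log2 fold change of 2.09 ± 0.61 (limma adjusted p = 0.0332, and 0.0809 without AAV 4), kept in 1 of 8 leave-outs. Slc25a41, a relative of the ATP-Mg/phosphate carriers, had 8.27, 8.05, 12.99 and 3.67 normalized counts in AAV 1 to 4 and 0, 2.57, 3.26 and 0.884 in KO 1 to 4, from 29 reads in AAV and 7 in KO. The log2 fold change of 1.90 ± 0.59 (adjusted p = 0.0400) became 2.97, at 0.0718, with 0.1 added before the logarithm. The call was also lost with the replicate block (adjusted p = 0.0629), the GC correction (0.0609) and the length correction (0.0526), and it was kept in 2 of 7 leave-outs. Slc25a24, with 52.0 to 521 in AAV, had 0.99 ± 0.56 (adjusted p = 0.205). The adjusted p was 0.0138 without AAV 3, its lowest AAV library, and DESeq2 gave 1.44 (adjusted p = 0.0213).

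Slc25a4 and Slc25a12 were not called. Slc25a4 had a log2 fold change of -0.15 with a 95% interval of -0.61 to 0.30 (limma adjusted p = 0.591), and Slc25a12, with 7004, 11276, 11934 and 6939 in AAV 1 to 4, lay below every KO library at -0.49 (adjusted p = 0.0799, and 0.0220 without AAV 3). Slc25a34 had 642, 956, 286 and 469 in AAV, at 1.14 ± 0.47 (adjusted p = 0.0982, and 0.0356 without KO 2 or 0.0380 without AAV 3). Of the 14 calls 12 were kept without AAV 4, Slc25a43 and Slc25a51 being those lost. Slc25a16, Slc25a25, Slc25a30, Slc25a32 and Slc25a44 kept theirs in all 10 alternatives and 8 leave-outs.

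The members called in none of the 3 comparisons numbered 22. Their log2 fold changes ran from -1.40 (Slc25a18, a glutamate carrier with 9 reads in the KO group) to 0.68 (Slc25a36) in KO against WT, and from -0.49 (Slc25a12) to 1.505 (Slc25a18) in AAV against KO. They include both mitoferrins, which bring iron to the matrix for heme and iron-sulfur clusters. Slc25a37 was at -0.22 in KO against WT (limma adjusted p = 0.317) and Slc25a28 at 0.03 (adjusted p = 0.872). The glycine carrier Slc25a38 was lower in every KO library than in any WT or AAV library, at -0.39 (adjusted p = 0.0661) in KO against WT and 0.22 (adjusted p = 0.147) in AAV against KO. Neither the carrier of S-adenosylmethionine, Slc25a26, nor that of dicarboxylates, Slc25a10, was called.

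The third comparison set treated mice beside WT. Of 43 members tested, 1 was higher in AAV (2.33%, against 0.951% of all 14939 genes) and 0 were lower (against 0.341%), and with a log2 fold change of at least 1 there were 0 (against 0.951%). Limma gave 5 members an unadjusted p under 0.05, 11.6% beside 18.2% of all genes. DESeq2 called 2 members higher and 1 lower, 6.98% beside 6.26% of all genes, and edgeR called 1 higher and 0 lower. The member called was Slc25a27, with 183, 224, 175 and 231 normalized counts in WT 1 to 4 and 409, 334, 366 and 330 in AAV 1 to 4. Its log2 fold change was 0.83 ± 0.16 (limma adjusted p = 0.0481). Without the pair of libraries set apart by Gaa it was 0.92, at an adjusted p of 0.145, and the call was kept in 1 of 8 leave-outs and lost without a filter and with the replicate block. Its KO values, 282 to 354, overlapped those of AAV, at a log2 fold change of 0.14 (adjusted p = 0.412).

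Slc25a30 and Slc25a25 overlapped between AAV and WT. For Slc25a30 the log2 fold change between AAV and WT was -0.07 with a 95% interval of -0.83 to 0.69, and for Slc25a25 it was -0.27 with an interval of -1.11 to 0.58. The absence of a call does not show that the groups are alike, and these intervals leave room for differences of that size. Gaa itself gave no separation of these groups, as WT 2 and AAV 4 both had high counts.

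Other genes of mitochondrial transport, listed for comparison by 33 symbols, of which Tomm70a and Tomm70 name the same gene, numbered 30 in the tables. Of these 3 were higher in KO than in WT (10%, beside 12.3% of all genes) and 11 lower (36.7%, beside 15.3%). In AAV against KO 6 were higher (20%, beside 12.8%) and 1 lower (3.33%, beside 13.4%). Calls of these listed genes come from the main fit, and what leave-outs and alternatives gave for them is not reported. Ucp2, the uncoupling protein found in many tissues, fell by 1.90 ± 0.375 on the log2 scale in KO (limma adjusted p = 0.00732) and rose by 1.52 ± 0.31 in AAV against KO (adjusted p = 0.00978), with WT 3 lowest of its group at 373, as in the macrophage sum. Ucp3, the form of muscle, was at 0.46 and -0.12 in the same comparisons (adjusted p = 0.251 and 0.577).

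The machinery that imports Slc25 carriers into the inner membrane had 9 genes in the tables, listed by 11 symbols that include Tomm70a and Tomm70. Of these 9 genes 4 were lower in KO and 0 higher, beside 15.3% and 12.3% of all genes tested. Timm10b was at -1.33 ± 0.32 (limma adjusted p = 0.0152), Timm8b at -0.58 ± 0.12 (adjusted p = 0.00941), Timm10 at -0.53 ± 0.16 (adjusted p = 0.0315) and Timm13 at -0.65 ± 0.22 (adjusted p = 0.0479), all small chaperones of the intermembrane space. The translocase subunit Timm22 was at -0.31 (adjusted p = 0.102). In AAV against KO 2 of these 9 genes were higher and 1 lower, beside 12.8% and 13.4% of all genes. These were Timm10b at 0.96 ± 0.27 (adjusted p = 0.0270) and Timm13 at 0.57 ± 0.14 (adjusted p = 0.0168), and the carrier receptor Tomm70a was lower at -0.72 ± 0.14 (adjusted p = 0.00909).

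Pyruvate enters the matrix through a carrier outside the Slc25 family, and its subunit Mpc2 was at 6465, 8276, 9607 and 6957 in WT 1 to 4, at 2672 to 4029 in KO and at 2852 to 4645 in AAV. It was lower in KO than in WT at -1.16 ± 0.17 (limma adjusted p = 0.00226) and lower in AAV than in WT at -1.07 (adjusted p = 0.0400), with 0.08 between AAV and KO (adjusted p = 0.742). Its partner Mpc1 was at -0.02 in KO against WT (adjusted p = 0.959). The outer membrane porins Vdac1, Vdac2 and Vdac3 were called in none of the 3 comparisons.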

How the data were processed

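RNA of quadriceps from 12 mice, 4 in each of the groups labelled WT, KO and AAV, was analysed. The authors trimmed reads with Trim Galore 0.4.1 (20 nt or longer kept), aligned them to GRCm38 with STAR and counted uniquely mapped reads per gene with HTSeq 0.6.1. The deposited signal, here called normalized counts, is these counts over a DESeq2 1.16.1 size factor for each library, without genes under 10 reads throughout. It gave whole reads (within 0.01) for 100% of values. The authors' own fold changes and p-values, also in the tables, were not used. Both tables, of 15344 genes each, held identical KO values, and all per-sample columns were used (0 left out). Strand treatment in counting is not given in the sources used here.

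The main test was limma 3.58.1 with a trend on log2(normalized count + 1), fitted on the 8 libraries compared. Genes entered with a normalized count of 10 or more in at least 1 of those libraries, and p was adjusted by Benjamini-Hochberg over all of them. A fold change on this scale understates the change of genes with few reads. Calls were made at an adjusted p under 0.05. Alternatives were DESeq2 1.42.0 and edgeR 4.0.16 on the recovered reads, scaling by total reads, no filter or a filter at 50, 0.1 added in place of 1, all 12 libraries fitted jointly, replicate number as a block, corrections for GC content or exonic length, and each library left out in turn. Family sums were compared by exact two-sided permutation tests (scipy 1.17.1). The procedure was tested on simulated data. Software was R 4.3.3 and Python 3.11.15.

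Gene positions and exonic lengths came from GENCODE M21 (GRCm38), which held 15186 of the identifiers, and upstream sequences from RefSeq (GRCm38.p6). The members, role groups, marker lists and motifs were chosen with earlier results of these data known. Values by library (ranges for Slc25a5, Slc25a13, Slc25a20 and Slc25a33) were given by rule for members called with a log2 fold change of at least 1, the 5 members highest per kb and others fixed by role, 19 in all. Other members are given by fold change and adjusted p, and 1 member, included in all counts and sums, is not reported here by name or drawn. Slc25a1, Slc25a22, Slc25a27 and single transport genes were given with more values after these were seen. Depth lay between 22122233 and 47379737 reads per library, and it limits precision for members with few reads.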

Additional observations from a re-analysis of the deposited data

Results flagged for a closer look

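Within groups of 4 libraries, a value was singled out where its gap to the nearest other value, divided by the range of the group, passed Dixon's 95% critical value for 4 samples. This was done for 63 groups (19 members, Slc25a1 and Gaa in 3 groups each), and chance singles out about 1 group in 20. That rate does not hold for Slc25a1 and Gaa, whose values were known when they were entered, so that their 3 values are a description of what was already noticed. The 4 values found were the Slc25a43 normalized count of 1.62 in WT 3, lowest of its group, the Slc25a1 normalized count of 327 in KO 3, highest of its group, and the Gaa normalized counts of 14640 in WT 2 and of 9854 in AAV 4, highest of theirs. WT 3 also had the lowest macrophage marker sum of its group (1105), and KO 3 the highest adipocyte marker sum of all libraries (16411).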

How the results depend on the processing

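Over the alternatives, counts of called members moved, and so did those over all genes. For KO against WT 4097 genes were called, 3062 with the replicate number as a block and 2353 to 7163 in leave-outs. For AAV against KO 3910 were called, 2179 with the block and 1961 to 5071 in leave-outs, and for AAV against WT 193, with 10 to 935 in the other settings. For KO against WT the 8 members higher became 5 with the replicate number as a block, and leave-outs gave 3 to 13 higher and 3 to 9 lower (13 and 9 without WT 3, 3 higher without KO 2, and 3 lower without WT 4, KO 1 or KO 4), with a median log2 fold change of -0.017 to 0.16. For AAV against KO the 5 higher became 8 with DESeq2, 2 with a filter at 50, 3 in a fit of all 12 libraries, 2 with the block, 2 with the GC correction and 3 with the length correction, and 1 to 5 in leave-outs (1 without KO 1 or KO 4). Its median became 0.11 with scaling by total reads and -0.15 with the filter at 50, and lay between -0.16 and 0.021 in leave-outs. For AAV against WT the 1 higher became 2 with DESeq2 or in the fit of all 12 libraries, 0 without a filter, with the block and without the pair of libraries set apart by Gaa, and 0 to 1 in leave-outs, the 0 lower became 1 with DESeq2, and the median became 0.078 with scaling by total reads. That scaling moved the median of all genes from 0.04 to 0.21 in AAV against KO and from -0.03 to 0.12 in AAV against WT.

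Signs changed only for values without a call. In KO against WT, Slc25a5 went to 0.085 with the length correction and Slc25a33 to 0.065 with the GC and 0.25 with the length correction. Leave-outs gave -0.29 to 0.52 for Slc25a1, -0.22 to 0.036 for Slc25a20 and -0.26 to 0.20 for Slc25a33. With scaling by total reads, Slc25a4 went to 0.013 in AAV against KO and Slc25a30 to 0.078 in AAV against WT. Without the pair of libraries set apart by Gaa, Slc25a30 was at 0.21 in AAV against WT, and leave-outs gave -0.29 to 0.11 for it and -0.52 to 0.030 for Slc25a25. The log2 ratio of the summed family was -0.028 to 0.082 in KO against WT leave-outs, and with scaling by total reads it became 0.017 for AAV against KO and 0.032 for AAV against WT. The causes were not tested. Replicate numbers belong to different animals, and deviations of libraries with the same number correlated between -0.35 and 0.55, so that the block rests on the number alone.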
